A study of Mus musculus with 14 samples.

Results

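The mitotic kinesins Kif2c, Kif4, Kif11, Kif14, Kif15, Kif18a, Kif18b, Kif20a, Kif22 and Kif23 were measured in sorted microglia, the macrophages that live in brain tissue, from the operated side of the mouse cortex. A gene entered the comparison when an array row was annotated to its symbol alone, and the row with the highest mean signal was used where a gene had several. All 10 of the 10 listed kinesins had such a row, out of 19938 genes measured in this way. The mice were 12- to 14-week-old C57BL/6J males, either wild type or TLR4-/-, operated under isoflurane. A filament blocked the middle cerebral artery for 15 min and the tissue was then reperfused for 72 h (I/R), or the mice had sham surgery. Wild type had 4 arrays per surgery, lettered A to D in the I/R group and likewise in the sham group. TLR4-/- had 3 arrays per surgery, B, C and D in the I/R group and A, B and D in the sham group. The titles of the I/R samples carry the abbreviation IPC, which the labels do not explain, and neither how the TLR4-/- allele was made nor which markers guided the sort is given in the sources used here. The labels name no animal for any sample, and the p-values therefore measure only the spread between samples, which may be technical.

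Kinesins are motor proteins that use ATP to move along microtubules or to take them apart at their ends. The mitotic kinesins are made mainly in the G2 and M phases of the cell cycle, when they separate the spindle poles, line up the chromosomes, build the central spindle and help cut the dividing cell apart. Microglia of the healthy adult brain divide slowly, and they are known to divide more often after injury to the tissue around them. Because the RNA of many sorted cells was pooled on each array, fewer cells of a type and less RNA per cell cannot be told apart in any value given here.

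The promoters of 9 of the 10 kinesins had 1 entry each in RefSeq's table for GRCm38.p6, which holds the 250 bases before and the 50 bases after an annotated start. Promoters of late cell-cycle genes are known for the cell cycle genes homology region (CHR), which the MuvB complex binds, for CCAAT boxes bound by NF-Y, and for E2F sites. Each window was searched on both strands for the CHR letters TTTGAA, for CCAAT, and for an E2F site written as TTTGGCGC, TTTCGCGC or TTTCCCGC. The 7 stretches below run from 80 bases before the start to 25 bases after it, 5′ to 3′ on the gene's own strand. They are shown because these kinesins have a CHR match or an E2F match close to the start, and the capitals mark the matches, with adjoining matches running together in Kif15. They come from chr19:37376302-37376406 on the plus strand (Kif11), chr9:122951001-122951105 on the plus strand (Kif15), chrX:100625985-100626089 on the plus strand (Kif4), chr7:127042396-127042500 on the minus strand (Kif22), chr11:102925100-102925204 on the minus strand (Kif18b), chr9:61946775-61946879 on the minus strand (Kif23) and chr2:109280658-109280762 on the plus strand (Kif18a).
Kif11: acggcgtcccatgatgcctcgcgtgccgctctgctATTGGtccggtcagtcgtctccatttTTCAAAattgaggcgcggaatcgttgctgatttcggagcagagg
Kif15: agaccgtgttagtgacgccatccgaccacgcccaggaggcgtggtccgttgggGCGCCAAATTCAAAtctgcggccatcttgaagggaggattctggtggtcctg
Kif4: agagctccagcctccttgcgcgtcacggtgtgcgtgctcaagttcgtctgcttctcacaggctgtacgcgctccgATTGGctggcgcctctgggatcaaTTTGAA
Kif22: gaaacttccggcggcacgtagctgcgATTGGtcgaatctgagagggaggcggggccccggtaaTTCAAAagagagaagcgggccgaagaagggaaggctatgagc
Kif18b: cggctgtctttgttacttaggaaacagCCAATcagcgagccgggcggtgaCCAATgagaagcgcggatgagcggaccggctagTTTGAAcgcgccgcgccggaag
Kif23: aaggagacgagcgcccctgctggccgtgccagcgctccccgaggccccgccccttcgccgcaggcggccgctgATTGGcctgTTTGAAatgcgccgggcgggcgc
Kif18a: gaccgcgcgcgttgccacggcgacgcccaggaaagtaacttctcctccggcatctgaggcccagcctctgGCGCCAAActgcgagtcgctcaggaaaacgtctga

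The CHR letters were present in the windows of 8 of the 9 kinesins, against 17.9% of the 32851 windows of all genes. Between 60 bases before the start and 50 after it, limits that were chosen after the positions had been seen, they were present in Kif4, Kif11, Kif15, Kif18b, Kif22 and Kif23, or 6 of 9, against 5.50% of all windows. In Kif11, the motor that pushes the spindle poles apart, the CHR match lay 19 to 14 bases before the start and a CCAAT match lay 45 to 41 bases before it. In Kif15, which can stand in for Kif11, the E2F match lay 27 to 20 bases before the start and the CHR match followed it directly, 19 to 14 bases before. Kif18a, which limits the growth of microtubules at the kinetochores, was the only one of the 9 without CHR letters, and its E2F match lay 10 to 3 bases before the start. CCAAT was present in 6 of 9 windows, against 37.4% of all windows, and the E2F letters were present in 2 of 9, against 1.84%. In Kif2c and Kif14 the CHR match lay further out, 103 to 98 and 228 to 223 bases before the start, and these entries begin 3852 and 1547 bases inside the annotated gene. A match describes letters in a window and shows neither a bound site nor a cause of any signal.

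**Figure D1:**
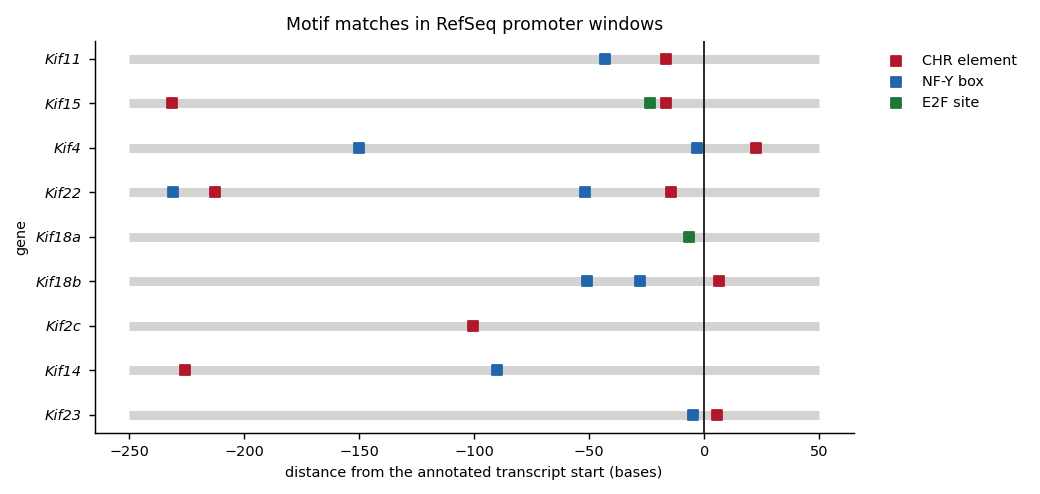
Positions of the CHR, CCAAT (NF-Y box) and E2F letters in the promoter windows of 9 mitotic kinesins, plotted as distance in bases from the annotated start. Each mark is 1 match on either strand, and 6 of the 9 kinesins have a CHR match between 60 bases before the start and 50 after it.

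Values below are log2 signal, on which a difference of 1 is a doubling. The deposited values carry no detection call, so the 95th percentile of 1027 olfactory receptor genes served as the background level and came to 4.67. A sham mean below that level is background signal, and the measured change is then given together with an at-least fold, which is the I/R mean against the background level. The array medians lay between 4.93 and 5.12, and arrays of the same group correlated at r of 0.981 to 0.993 across genes. Averaged over their partners, all 4 wild-type sham arrays and all 3 TLR4-/- I/R arrays correlated better with the arrays of the other genotype after the same surgery than with their own group. Wild-type sham array C correlated at 0.981 to 0.986 with its own group and at 0.987 to 0.992 with the TLR4-/- sham arrays. The targeted gene Tlr4 gave a signal in both genotypes. After sham it lay between 8.57 and 8.92 in wild type and between 8.15 and 8.47 in TLR4-/-. After I/R it lay between 8.14 and 8.48 in wild type and between 7.62 and 8.40 in TLR4-/-. TLR4-/- differed from wild type by -0.46 after sham and by -0.28 after I/R (limma adjusted p = 0.920 and 0.634). Where the deletion lies relative to the array's probes is not stated, and this signal checks nothing about the labels. Of 12 microglia markers 11 had a row, all 11 above background, with array means of 10.89 to 11.38.

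The genes that keep the spindle bipolar were near background after sham surgery and high after I/R. Kif11 read 4.56, 4.55, 3.77 and 5.10 on wild-type sham arrays A to D and 8.52, 8.09, 7.92 and 8.05 on wild-type I/R arrays A to D. In TLR4-/- it read 3.84, 3.97 and 4.68 on sham arrays A, B and D and 7.88, 7.49 and 7.36 on I/R arrays B, C and D. The lowest I/R array thus lay far above the highest sham array in each genotype. The I/R arrays of wild type all lay above those of TLR4-/-, though only narrowly, at 7.92 against 7.88 for the closest arrays. Kif11 rose by 3.65 ± 0.24 (SE) in wild type, with a limma adjusted p of 1.95e-08, and by 3.41 ± 0.28 in TLR4-/-, with an adjusted p of 4.90e-07. Its sham means of 4.49 ± 0.55 (SD, n = 4) and 4.17 ± 0.45 (SD, n = 3) lay below the background level, so it was at least 11.1-fold higher after I/R in wild type and at least 7.51-fold in TLR4-/-. Kif15, a motor that crosslinks spindle microtubules, lay between 3.98 and 4.41 after sham and between 6.60 and 7.06 after I/R in wild type. In TLR4-/- it lay between 3.78 and 4.36 after sham and between 5.75 and 6.70 after I/R. It rose by 2.62 ± 0.18 (SE) in wild type and by 2.12 ± 0.21 in TLR4-/- (limma adjusted p = 3.72e-08 and 4.69e-06). Both sham means were below background, which gives at least 4.28-fold and at least 2.82-fold.

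**Figure D2:**
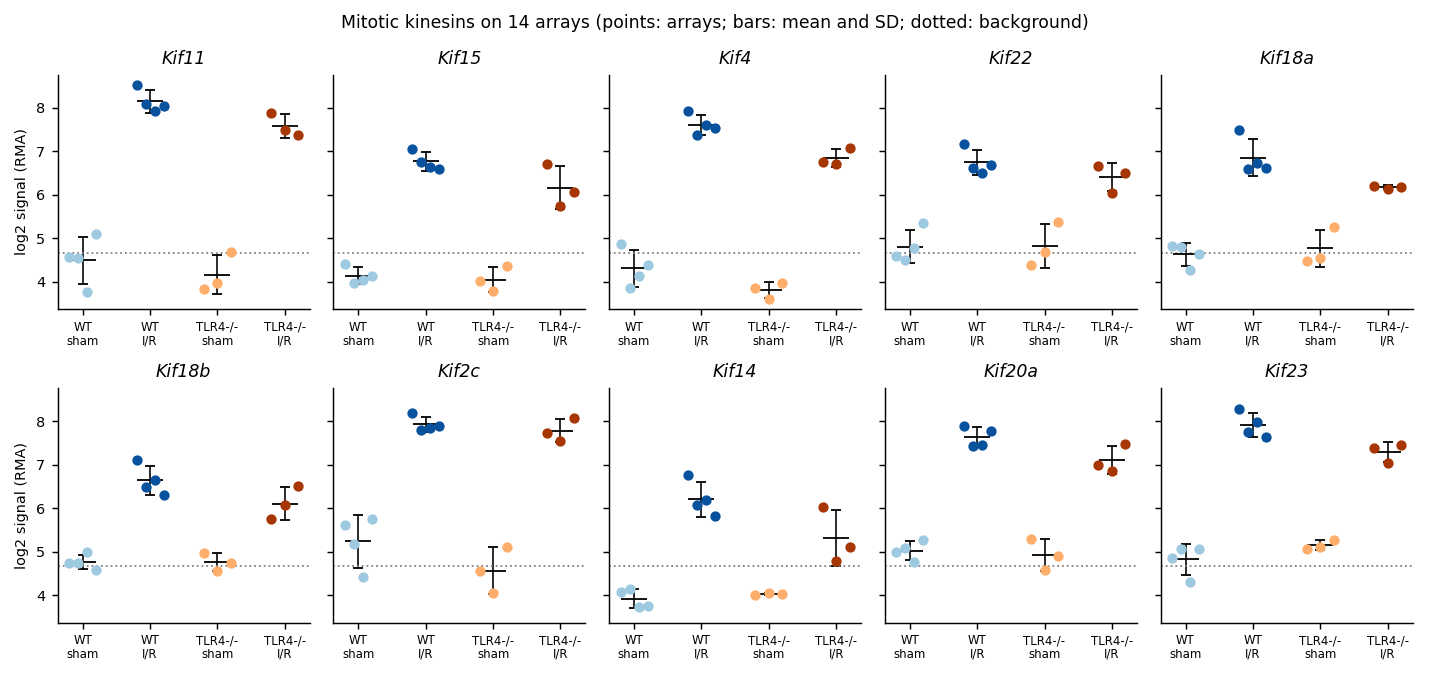
Log2 signal of each mitotic kinesin on each of the 14 arrays, by genotype and surgery. Points are arrays, bars are group means with SD and the dotted line is the background level of 4.67, and in every panel the I/R points of a genotype lie above its sham points.

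The motors that act on the chromosome arms and on the spindle midzone rose in both genotypes. Kif4, a chromokinesin that works with Prc1 to shorten the central spindle, read 4.87, 3.86, 4.14 and 4.38 on wild-type sham arrays A to D and 7.93, 7.38, 7.59 and 7.54 on wild-type I/R arrays A to D. In TLR4-/- it read 3.87, 3.62 and 3.96 after sham and 6.76, 6.71 and 7.08 after I/R. The 3 TLR4-/- I/R arrays lay below all 4 wild-type I/R arrays and far above every sham array. Kif4 rose by 3.30 ± 0.18 (SE) in wild type and by 3.03 ± 0.21 in TLR4-/- (limma adjusted p = 2.96e-09 and 9.97e-08). Both sham means were below background, which gives at least 7.69-fold and at least 4.53-fold. Its pseudogene Kif4-ps has 2 rows of its own, which lay between 3.34 and 4.65 on all arrays, and whether probes of the 2 genes share signal is uncertain. Kif22, a chromokinesin that pushes chromosome arms away from the poles, had smaller changes. It rose by 1.93 ± 0.22 in wild type, from 4.81 ± 0.39 (SD, n = 4) to 6.74 ± 0.29, and by 1.59 ± 0.26 (SE) in TLR4-/-, from 4.82 ± 0.50 (SD, n = 3) to 6.41 ± 0.32 (limma adjusted p = 1.47e-05 and 7.69e-04).

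The motors that control microtubule length followed. Kif18a read 4.82, 4.80, 4.27 and 4.63 on wild-type sham arrays A to D and 7.48, 6.60, 6.73 and 6.61 on wild-type I/R arrays A to D. In TLR4-/- it read 4.48, 4.56 and 5.27 after sham and 6.21, 6.13 and 6.19 after I/R. Wild-type I/R array A stood above the other 3 of its group, which lay within 0.13 of each other, and the TLR4-/- I/R arrays lay below all of them. Kif18a rose by 2.23 ± 0.20 (SE) in wild type and by 1.40 ± 0.23 in TLR4-/- (limma adjusted p = 8.71e-07 and 9.13e-04). Its wild-type sham mean of 4.63 lay just below background, which gives at least 4.56-fold there. Kif18b, which shortens astral microtubules, rose by 1.87 ± 0.18 in wild type and by 1.34 ± 0.20 in TLR4-/- (limma adjusted p = 1.38e-06 and 4.02e-04). Kif2c does not walk but takes microtubule ends apart, which frees wrongly attached chromosomes. It read 5.61, 5.17, 4.41 and 5.75 on wild-type sham arrays A to D and 8.18, 7.80, 7.83 and 7.88 on wild-type I/R arrays A to D. In TLR4-/- it read 4.55, 4.04 and 5.11 after sham and 7.72, 7.55 and 8.07 after I/R. Its I/R arrays overlapped between the genotypes, while its sham arrays spread more widely than its I/R arrays. Kif2c rose by 2.69 ± 0.25 (SE) in wild type and by 3.21 ± 0.29 in TLR4-/-, where the sham mean was below background, which gives at least 8.64-fold (limma adjusted p = 1.42e-06 and 1.78e-06).

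The motors of cytokinesis rose as well. Kif23, which forms centralspindlin with Racgap1 and recruits the cytokinesis machinery to the midzone, read 4.86, 5.06, 4.31 and 5.05 on wild-type sham arrays A to D and 8.27, 7.75, 7.98 and 7.63 on wild-type I/R arrays A to D. In TLR4-/- it read 5.07, 5.11 and 5.27 after sham and 7.39, 7.03 and 7.45 after I/R. The TLR4-/- arrays were the higher ones after sham and the lower ones after I/R, with no overlap between the genotypes after either surgery, though only narrowly after sham. Kif23 rose by 3.09 ± 0.17 (SE) in wild type, or 8.49-fold, and by 2.14 ± 0.20 in TLR4-/-, or 4.41-fold (limma adjusted p = 2.96e-09 and 1.86e-06). Kif20a, which carries the chromosomal passenger complex to the central spindle, rose by 2.60 ± 0.17 in wild type and by 2.18 ± 0.20 in TLR4-/- (limma adjusted p = 2.18e-08 and 1.78e-06). Kif14, which holds citron kinase at the midbody, read 4.07, 4.13, 3.72 and 3.75 on wild-type sham arrays A to D and 6.77, 6.07, 6.18 and 5.81 on wild-type I/R arrays A to D. In TLR4-/- it read 4.01, 4.04 and 4.02 after sham and 6.03, 4.79 and 5.10 after I/R. I/R array B of TLR4-/- lay within the wild-type I/R range and the other 2 lay below it. Kif14 rose by 2.29 ± 0.23 (SE) in wild type and by 1.28 ± 0.26 in TLR4-/- (limma adjusted p = 2.58e-06 and 0.00485). Both sham means were below background, which gives at least 2.90-fold and at least 1.56-fold. A second Kif14 row lay between 1.81 and 2.59 on all arrays, at background, and with the mean of both rows the changes were 1.14 and 0.67.

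In wild type all 10 kinesins passed the test as higher after I/R, at an adjusted p under 0.05, against 6.15% of all 19938 genes. The kinesins were chosen with earlier results of these data known, so the shares given beside them describe the data and are not an independent test. All 10 had a measured change of at least 2-fold, against 2.36% of genes, and the groups did not overlap for all 10, against 7.78% of genes. The median change over the 10 was 2.61 and that over all genes was -0.06. In TLR4-/- all 10 passed as higher, against 5.04% of genes, all 10 with a measured change of at least 2-fold, against 2.3%, and all 10 without overlap, against 11.1%. The median change there was 2.13, against -0.03 over all genes. Counted from the background level, the change of Kif14 in TLR4-/- was below 2-fold. Measured changes in wild type were largest for Kif11, Kif4 and Kif23 and smallest for Kif22 and Kif18b, and in TLR4-/- they were largest for Kif11, Kif2c and Kif4 and smallest for Kif14. Because 5 of the 10 sham means in each genotype lay below background (Kif4, Kif11, Kif14 and Kif15 in both, Kif18a in wild type and Kif2c in TLR4-/-), the changes of these genes are bounds and no order among the 10 is settled by them. Among the 5 with both wild-type means above background, Kif23 (3.09) led, Kif2c (2.69) and Kif20a (2.60) differed by less than an SE, and so did Kif22 (1.93) and Kif18b (1.87). The wild-type sham means of Kif18b (4.76), Kif22 (4.81) and Kif23 (4.82) lay only just above background, so this order is not settled either. Leaving out wild-type sham array C lowered the wild-type median change to 2.46, and leaving out any array kept all 10 called in both genotypes.

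**Figure D3:**
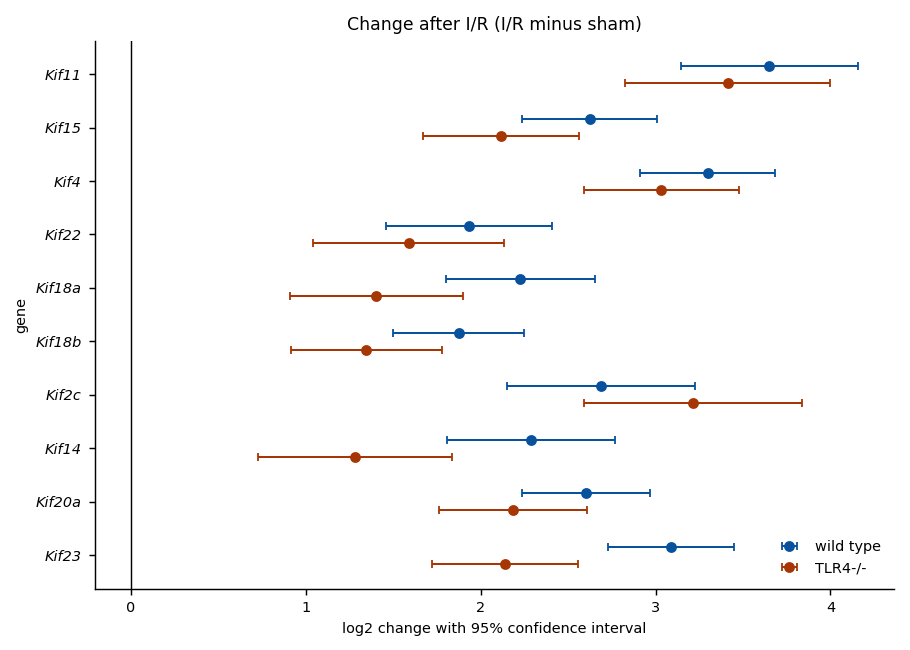
Log2 change from sham to I/R of each mitotic kinesin in wild type and in TLR4-/-, with 95% intervals from the limma fit. All 10 changes lie above 1 in both genotypes, and the point for TLR4-/- lies below that for wild type for all but Kif2c.

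The change in wild type minus the change in TLR4-/- was tested for each gene, which asks whether the response to I/R differed with the genotype. With limma 0 of the 10 kinesins passed at an adjusted p under 0.05, and 0% of all 19938 genes did. The difference was negative for Kif2c alone, 1 of the 10, against 53.4% of all genes, with a median of 0.46 over the 10 and of -0.02 over all genes. It was 0.95 for Kif23 with a 95% interval of 0.39 to 1.50, 0.82 for Kif18a with an interval of 0.17 to 1.48, and 1.00 for Kif14 with an interval of 0.27 to 1.74, or 0.47 for Kif14 with the mean of both its rows. For Kif14 and Kif18a a sham signal below background enters this difference. These 3 had an unadjusted p under 0.05, as did 3.82% of all genes, and the adjusted p over the 10 lay between 0.994 and 1.00. The count of 3 became 6 without TLR4-/- sham array B, 5 without wild-type sham array C or TLR4-/- I/R array D, and 2 without TLR4-/- sham array D, and the median was 0.29 without TLR4-/- I/R array C. For Kif2c the difference was -0.53, with an interval of -1.35 to 0.30. For Kif11 it was 0.24, with an interval of -0.54 to 1.01, and the remaining 5 lay between 0.27 and 0.53 with intervals that include 0. Sham signals below background also enter the differences of Kif2c, Kif4, Kif11 and Kif15.

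After sham surgery 0 of the 10 kinesins passed the limma test between TLR4-/- and wild type, and 0.00502% of all genes did. TLR4-/- was the lower genotype for 6 of the 10, and for 46.6% of all genes, and the median difference was -0.05. Without TLR4-/- sham array B, 3 of the 10 were lower and the median was 0.07, and without TLR4-/- sham array D, 8 were lower and the median was -0.18. Kif2c was lower by 0.67 (95% interval of -1.25 to -0.09 for the difference) and Kif4 by 0.50 (-0.91 to -0.08), and these 2 had an unadjusted p under 0.05, as did 5.24% of genes. The Kif4 means of both genotypes and the TLR4-/- mean of Kif2c lay below background there. Leaving out 1 array gave from 0 kinesins at that p (without wild-type sham array A or TLR4-/- sham array B) to 3 (without wild-type sham array C or TLR4-/- sham array D), and 1 without wild-type sham array D or TLR4-/- sham array A. Kif23 was the 1 kinesin whose sham arrays did not overlap with TLR4-/- higher, by 0.33, against 3.65% of genes without overlap in that direction.

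After I/R the signal of all 10 kinesins was lower on average in TLR4-/- than in wild type, as was that of 44.1% of all genes. The limma test called 0 of the 10, and 0.0201% of all genes, at an adjusted p under 0.05. The adjusted p over the 10 lay between 0.406 and 0.888. The differences ran from -0.90 for Kif14 (95% interval of -1.42 to -0.38) and -0.76 for Kif4 (-1.18 to -0.35) to -0.33 for Kif22 (-0.84 to 0.18) and -0.14 for Kif2c (-0.72 to 0.44). With the mean of both its rows the difference for Kif14 was -0.31. The median was -0.58, against 0.03 over all genes. An unadjusted p under 0.05 was reached by 8 of the 10, all but Kif22 and Kif2c, against 8.47% of genes, and by 5 of the 10 without TLR4-/- I/R array C. The 2 genotypes did not overlap for Kif4, Kif11, Kif18a and Kif23, with Kif11 only narrowly apart. That was 4 of 10, against 3.2% of genes without overlap in that direction. This comparison shares its I/R arrays with the difference between the changes and adds no separate samples to it. Markers of border-associated macrophages, which live along brain vessels and in the meninges, were also lower on average in TLR4-/-, 8 of 8 after I/R with a median of -0.52 and 8 of 8 after sham with a median of -0.34. Their array means after I/R lay between 7.41 and 8.04 in wild type and between 6.94 and 7.39 in TLR4-/-, and after sham between 7.63 and 7.90 and between 6.96 and 7.69. With limma 0 of the 8 passed after either surgery, and 4 after I/R and 2 after sham had an unadjusted p under 0.05. Of 11 monocyte markers 7 were lower and 4 higher in TLR4-/- after I/R, with a median of -0.18 and a highest difference of 0.15. The lowest of the list was the chemokine receptor Ccr2, lower by 0.79 without overlap (limma adjusted p = 0.126). Of 11 microglia markers 4 were lower, with a median of 0.04. The part of these markers in the difference of the kinesins was not tested.

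**Figure D4:**
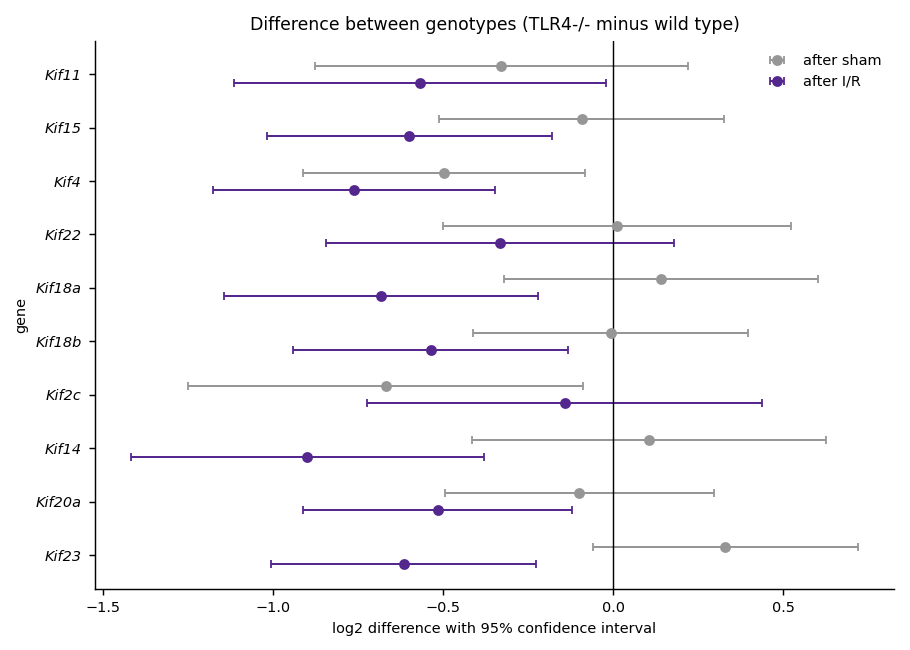
Log2 difference between TLR4-/- and wild type for each mitotic kinesin after sham surgery and after I/R, with 95% intervals from the limma fit. After I/R all 10 points lie below 0 and none passed the adjusted test, while after sham surgery the points lie on both sides of 0.

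Some single arrays were the highest or the lowest of their group for most of the 10 kinesins. Wild-type I/R array A was the highest of its group for all 10, with a mean over the 10 of 7.63 against 7.09 to 7.15 on the other 3. Mki67, a marker of dividing cells, was also highest there, at 9.03 against 8.40 to 8.70. Without that array the median difference between the genotypes after I/R was -0.46. Leaving it out could not bring Kif4, Kif11, Kif18a or Kif23 into overlap, because it was the highest of its group for all 10. The overlap therefore does not test how far that array matters. Wild-type sham array C was the lowest of its group for 6 of the 10, TLR4-/- sham array D the highest for 7 and TLR4-/- I/R array C the lowest for 8. Mki67 was likewise lowest on that wild-type sham array, at 4.88, and highest on that TLR4-/- sham array, at 5.33. On TLR4-/- I/R array C it read 8.23, above the 8.17 of array D. TLR4-/- I/R array B was the highest of its group for 5 kinesins and the lowest for 1. Mki67 rose by 3.42 in wild type, or 10.7-fold, and by 3.15 in TLR4-/-, or 8.87-fold (limma adjusted p = 1.22e-09 and 4.67e-08). Between the genotypes after I/R it differed by -0.45 (adjusted p = 0.549).

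Outside the 10, the other kinesins with a role in cell division split. Of 5 measured, 3 rose in wild type and 2 in TLR4-/-. Cenpe, which carries chromosomes to the spindle equator, rose by 3.29 and 2.64, and Kif20b, a motor of late cytokinesis, rose by 2.79 and 1.74 (limma adjusted p of 1.02e-05 or less). Kif24, which acts at the centriole, rose by 0.80 in wild type and changed by 0.36 in TLR4-/- without passing the test. Kif2a, a relative of Kif2c, read differences of 0.13 and 0.18, and Kif2b of -0.11 and 0.10, none of them called. The mean signal of Kif2b, 3.60, lay below the background level. Of 25 transport and other kinesins, 1 rose in wild type and 0 in TLR4-/-, and the medians were -0.09 and -0.05. Kif3a, a subunit of the motor of ciliary transport, rose by 0.60 in wild type (adjusted p = 0.00250), and Kif13a, an endosome motor, fell by 0.75 in TLR4-/- (adjusted p = 0.0136). Among 5 kinesin light chains and adaptors and 10 subunits of cytoplasmic dynein, the motor that moves toward the opposite microtubule end, 0 passed the test in either genotype.

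Most regulators and partners of the mitotic kinesins rose, 18 of 22 in each genotype, with medians of 2.62 and 2.21. Bub1, a kinase of the spindle checkpoint, rose by 4.77 and 3.87, Birc5, the chromosomal passenger survivin, by 4.46 and 4.03, and Ccnb2, a mitotic cyclin, by 3.67 and 3.09. The kinase Nek6 fell by 0.38 in wild type. Of 13 spindle microtubule-associated proteins, 10 rose and 2 fell in wild type, and 8 rose and 2 fell in TLR4-/-. Hmmr, which binds spindle microtubules, rose by 3.65 and 2.76, Cep55, a midbody protein, by 3.37 and 2.84, and Dlgap5, a stabiliser of kinetochore fibres, by 3.17 and 3.07. Numa1, which anchors dynein at the poles, and Clasp2, which stabilises microtubule plus ends, were the 2 that fell. Of 11 tubulins, 3 rose in both genotypes, namely Tubb6 by 1.38 and 1.06, Tubb5 by 0.93 and 0.76, and Tubg1, the tubulin that seeds microtubules, by 0.66 and 0.74. Of 16 transcription regulators of late cell-cycle genes, 6 rose in wild type and 5 in TLR4-/-. Foxm1, an activator of mitotic genes, rose by 2.31 and 2.15, and the E2F repressors E2f8 and E2f7 rose by 2.64 and 2.04 and by 0.70 and 0.69. Tfdp1, the partner of E2F proteins, rose by 0.66 and 0.95. After I/R all 13 spindle proteins were lower on average in TLR4-/- than in wild type, by 0.18 to 0.92 in size, with 0 called by limma at an adjusted p under 0.05.

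**Figure D5:**
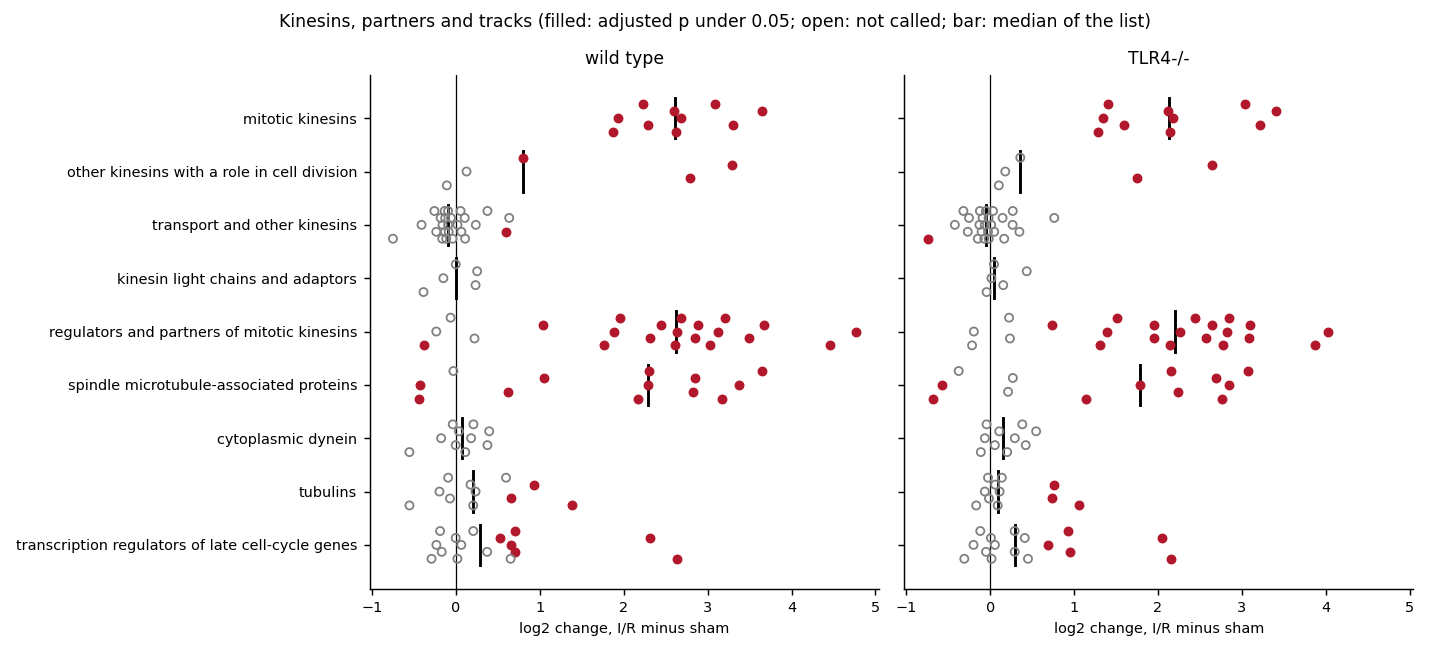
Log2 change from sham to I/R of every measured gene in the mitotic kinesins and in the other pathway lists, in wild type and in TLR4-/-. Each point is a gene, filled where called at an adjusted p under 0.05, and each bar is a median, and the transport kinesins and dynein subunits lie around 0 where the 10 mitotic kinesins lie above 1.

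Microglia and monocyte markers changed with surgery, and few of the other marker lists did. Of 11 measured microglia markers 8 fell in wild type and 6 in TLR4-/- after I/R, against 3.63% and 3.13% of all genes, and their array means lay between 11.28 and 11.35 after sham and between 10.89 and 11.07 after I/R in wild type. In TLR4-/- they lay between 11.28 and 11.38 after sham and between 10.90 and 10.98 after I/R. Of 11 measured monocyte markers 8 rose in wild type and 5 in TLR4-/-, and their array means were 4.70 to 4.93 after sham and 5.88 to 6.53 after I/R in wild type, and 4.64 to 4.81 and 5.94 to 6.07 in TLR4-/-. The changes of these markers were positive for 11 of 11 in wild type, with a median of 1.27 and a highest of 3.20. In TLR4-/- 9 of 11 were positive, with a median of 0.97 and a highest of 3.52. Ccr2, a marker of inflammatory monocytes, read changes of 0.41 and -0.22, the latter the lowest of the list, and did not pass the test. Ly6c2 had no row of its own here. On wild-type I/R array A, the highest for all 10 kinesins, the monocyte markers averaged 6.05, and the highest array of that group was C, at 6.53. None of the 10 neutrophil markers lay above background on average, and Cxcr2 was the 1 that rose, in wild type. The neutrophil markers averaged 4.43 on wild-type I/R array C, against 3.43 to 3.69 on the other arrays of that group. Of the other lists, Cd22 among 5 B cell markers rose in both genotypes and Cspg4 among 8 oligodendrocyte lineage markers rose in wild type. Endothelial and pericyte markers had 2 of 8 higher and 1 lower in wild type and 1 lower in TLR4-/-, and astrocyte markers had 1 of 7 lower in each. Border macrophage markers had 1 of 8 lower in TLR4-/-, and 0 of 10 T and NK cell, 0 of 8 neuron and 0 of 2 erythroid markers passed the test in either genotype. The part of these markers in the result for the kinesins was not tested.

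The genes outside the 10 whose pattern was most like theirs were found by the root-mean-square log2 difference from the median profile of the 10 kinesins, each gene centred on its mean, over all 14 arrays. The closest was Parpbp, an inhibitor of homologous recombination, at 0.12. Kntc1, a kinetochore protein of the checkpoint, followed at 0.18 and Ccne2, a cyclin of S phase entry, at 0.19. E2f8, Ska3, Wee1, Kif20b, Cenpa, Cdk1 and Cip2a lay between 0.22 and 0.25. Among the 10 themselves, Kif15 lay closest to the median profile, at 0.15, and Kif11 farthest, at 0.65. Parpbp thus lay closer to the median profile than any of the kinesins that made it up.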

How the data were processed

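Each biotin-labelled RNA sample was read on its own Affymetrix Mouse Gene 1.0 ST array. The authors deposited log2 values, for which the submitters' processing notes name RMA and oligo without versions. RMA corrects background, quantile-normalizes the arrays and combines probes, and precision is limited by the array number. Of 35556 rows, 21789 were annotated to 1 symbol, 1621 to several and 12146 to none, and the row with the highest mean stood for each of 19938 genes. limma 3.58.1 in R 4.3.3 fitted the 4 group means to all genes (lmFit and eBayes), with Benjamini-Hochberg adjustment over all 19938 and calls at an adjusted p under 0.05; the code was tested on simulated data. No filter on low values was applied, and all 10 kinesins had a mean above the background level.

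The text names all 10 kinesins; in each pathway list the 3 genes with the largest change among those called in each genotype; the 10 genes with the most similar profile; Mki67; and Tlr4. Nek6, Numa1, Clasp2, Kif2a, Kif2b, Ccr2, Ly6c2, Cxcr2, Cd22, Cspg4 and Kif4-ps were named after their values were seen. The kinesins and the lists were chosen with earlier results of these data known. The alternatives were a fit on only the groups compared, a trended and robust eBayes fit, array weights, median centring, a filter on dim genes, the mean of a gene's rows, a replicate block and leaving out each array. Promoter sequences are RefSeq's for GRCm38.p6, and Kif20a has no entry in that table.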

Additional observations from a re-analysis of the deposited data

Results flagged for a closer look

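Kif18a on wild-type I/R array A read 7.48, and the next of its group read 6.73. The gap of array A made up 0.855 of the group's whole range, above Dixon's 95% critical value for 4 samples. The test was run on 20 sets of 4 arrays, the 10 kinesins in each wild-type group, and chance alone marks about 1 in 20. Without that array the wild-type change of Kif18a was 2.02 and it was still called.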

How the results depend on the processing

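The number of kinesins called by limma was 10 in wild type, 10 in TLR4-/- and 0 in each of the other 3 comparisons under every alternative run. The median change lay between 2.46 and 2.67 in wild type and between 1.97 and 2.29 in TLR4-/-, the median difference between the changes between 0.29 and 0.61, the median difference after sham between -0.18 and 0.07, and all 10 differences after I/R stayed below 0, with medians of -0.69 to -0.46. The replicate letters showed no clear pairing of the samples. The correlation of deviations ran from -0.10 to 0.28 over 18 same-letter pairs (median 0.041, 3 over 0.1). Over 55 different-letter pairs it ran from -0.26 to 0.24 (median -0.0052, 6 over 0.1). With the letter as a replicate block the counts were again 10, 10, 0, 0 and 0. The sign of small, uncalled differences turned. After sham surgery Kif18b was 0.047 with array weights and 0.0085 with the replicate block, and Kif22 was -0.041 with array weights, -0.030 with median centring and -0.055 with the replicate block. Leaving out 1 array in turn, the sham difference ranged from -0.26 to 0.23 for Kif22, -0.11 to 0.094 for Kif18b, -0.25 to 0.043 for Kif15, -0.29 to 0.074 for Kif20a and -0.11 to 0.28 for Kif18a, and the difference between the changes of Kif11 from -0.020 to 0.44. The cause was not tested.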
